A study of Mus musculus with 4 samples.

Results

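Mouse primary osteoblasts were read on 11 probes for 7 genes: the transcription factors Mef2a, Mef2c and Mef2d, and the class IIa histone deacetylases Hdac4, Hdac5, Hdac7 and Hdac9. The probes are all those on the array that are not controls and whose gene name is on this list, 7 for MEF2 factors and 4 for deacetylases, out of 55681 such probes in all. All 11 were kept by the filter on dim probes, which kept 33976 of the whole. The cultures received BMP2 (200 ng/ml) with LOXL2 (4 µg/ml), BMP2 alone, LOXL2 alone or neither, for 72 h in medium with 10% serum, and each treatment was measured on 1 single-colour Agilent array. BMP2 is a growth factor that induces cartilage and bone, and LOXL2, of the lysyl oxidase family, is an enzyme outside the cell that joins collagen chains. The labels call the cells of both arrays without BMP2 pre-osteoblasts and those of both arrays with it osteoblasts. They do not say how the cells were isolated or whether the cultures came from separate preparations, so the spread between arrays may be technical.

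MEF2 factors are DNA-binding proteins of the MADS-box family that switch on muscle, bone and hypertrophic cartilage genes. Class IIa histone deacetylases bind MEF2 factors and hold their targets silent; when kinases of the CaMK, protein kinase D and SIK groups phosphorylate them, they are bound by 14-3-3 proteins and leave the nucleus. In the mouse growth plate, Mef2c is needed for chondrocytes to become hypertrophic, Hdac4 holds that step back, and the hormone-like protein PTHrP keeps Hdac4 active.

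The arrays were alike in depth, with 60.4% to 62.2% of spots well above background and no saturated spot. None of the 11 member spots was marked as an outlier or fell below background on any array. Intensities are given in the scanner's arbitrary units after each array was scaled to a common 75th percentile of 725.5. Each member probe lay on 1 spot, so its error within an array was taken from 399 other probes printed on 10 spots. Their median standard deviation on the log2 scale was 0.196 at intensities of 20 to 60, 0.115 at 60 to 150, 0.0721 at 150 to 600, 0.0558 at 600 to 3000 and 0.0495 above that. This error holds none of the variation between cultures. Levels of different probes are not compared, since probes differ in how well they bind. Of 15 osteoblast markers, 14 or 15 were well above background on every array. So were 11 to 13 of 13 early chondrocyte and 12 to 14 of 15 leukocyte markers. For muscle it was 10 of 15 and for endothelium 6 or 7 of 10. These counts alone therefore do not set the cell type.

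The Mef2c probe and 1 of the 3 Mef2d probes cross a splice junction, because their 60 bases cover 2238 and 347 bases of the mm9 genome. They are shown because Mef2c rests on a single probe and because this Mef2d probe did not follow the others of its gene. The Mef2c probe lies at chr13:83772788-83775025 and the Mef2d probe at chr3:87972214-87972560, both on the plus strand. The sequences are written as in the array files.
Mef2c A_55_P2155620: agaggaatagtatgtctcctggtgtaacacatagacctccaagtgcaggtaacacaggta
Mef2d A_51_P504672: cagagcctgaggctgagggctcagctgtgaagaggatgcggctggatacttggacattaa

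The first question was how BMP2 changed the members. Mef2c rose most: it was at 115 with BMP2 alone, against 47.8 untreated, and at 119 with both proteins, against 39.7 with LOXL2. Both arrays with BMP2 lay above both without it. The fitted change, with LOXL2 in the model, was 1.42 ± 0.11 (log2 ± SE, a 2.68-fold rise, limma adjusted p = 0.0366). In these bulk cultures, more cells that express a gene and more RNA per cell cannot be told apart. With normexp background correction the change was 0.78 (adjusted p = 0.00098). Without a filter on dim probes 0 probes passed for BMP2 in limma, though 11949 had an unadjusted p under 0.05. Every BMP2 call below was therefore lost in that setting, with a limma adjusted p = 0.126 for Mef2c.

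**Figure D1:**
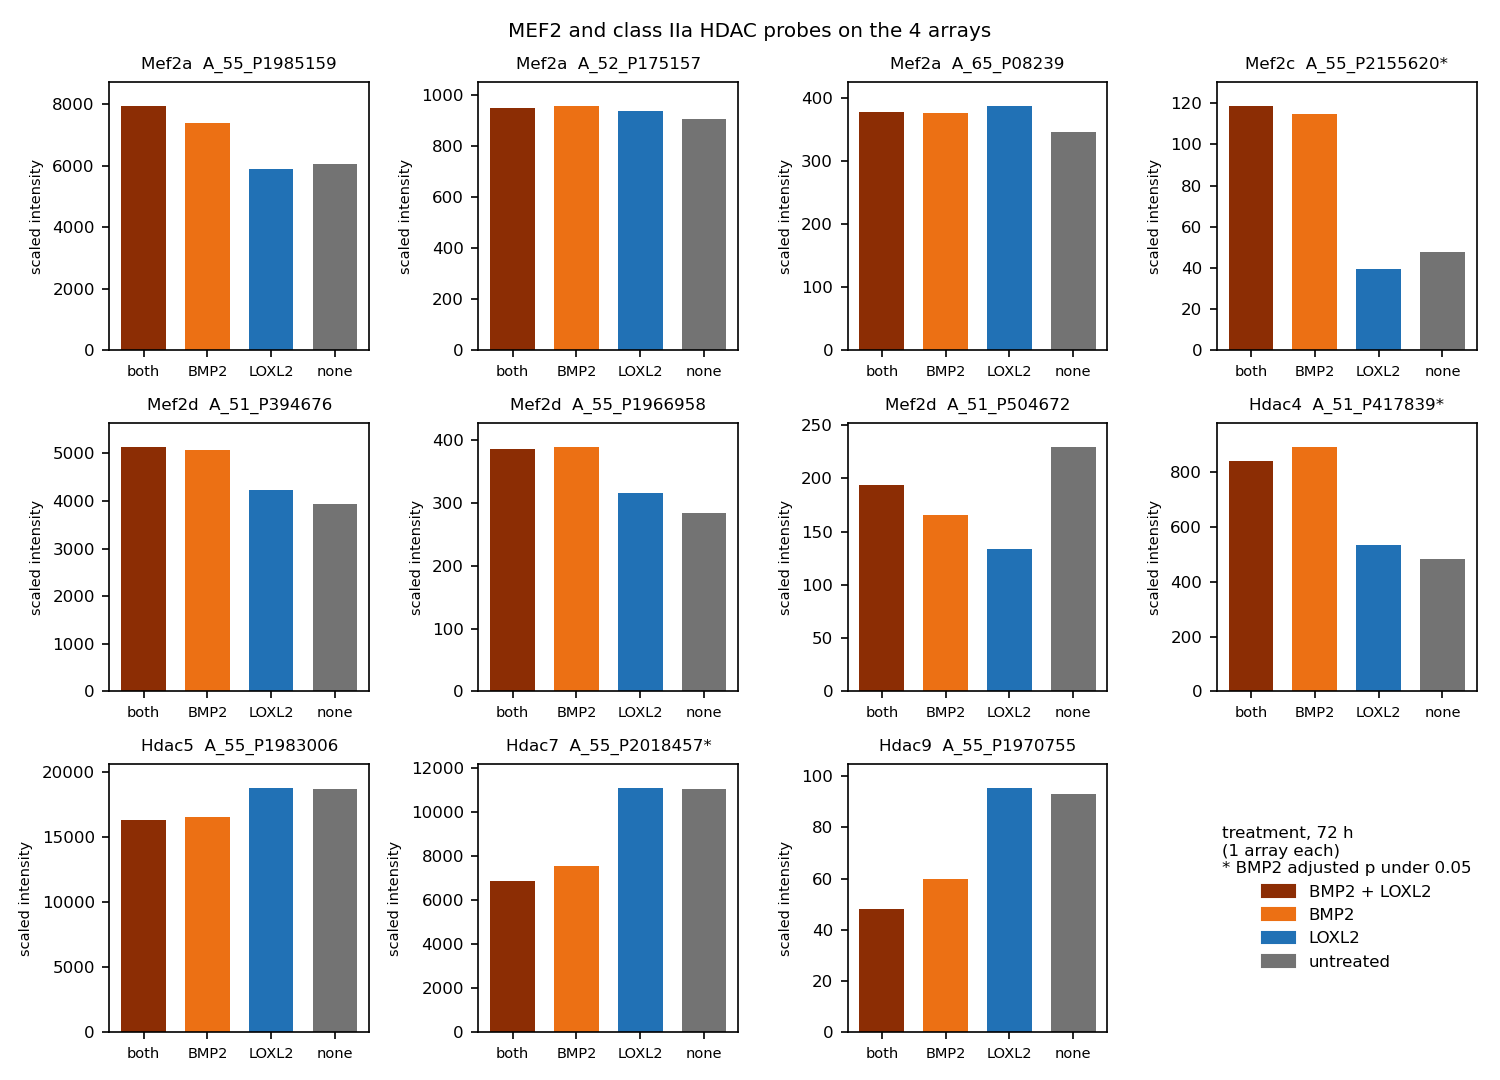
Scaled intensity (vertical axis, arbitrary units, from 0) of each of the 11 member probes on the 4 arrays, with both proteins, BMP2, LOXL2 and no treatment from left to right; each bar is 1 array and an asterisk marks a BMP2 adjusted p under 0.05. Mef2c and Hdac4 stand higher on the arrays with BMP2, Hdac7 and Hdac9 lower, and the Mef2d probe A_51_P504672 has no common direction.

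For Mef2d, a widely expressed family member, the brightest probe was at 5076 with BMP2 alone, against 3938 untreated, and at 5137 with both proteins, against 4235 with LOXL2. Its fitted change of 0.32 ± 0.06 did not pass the test in limma (adjusted p = 0.0766). The probe A_55_P1966958 gave 0.37 ± 0.08 (adjusted p = 0.0807), with 389 against 284 and 386 against 316 in the same pairs. On both probes the arrays with BMP2 lay above those without. The junction probe A_51_P504672, printed above, was at 165 with BMP2 alone, against 229.5 untreated, and at 194 with both proteins, against 134 with LOXL2. Its BMP2 differences, 0.53 under LOXL2 and -0.47 without it, point in opposite directions, so its fitted change was 0.03 with a standard error of 0.31. The junction probe is the most upstream of the 3, and the others lie 757 and 3563 bases downstream on mm9.

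Mef2a, the third MEF2 factor, also gave different values by probe. The brightest probe, A_55_P1985159, was at 7393 with BMP2 alone, against 6076 untreated, and at 7949 with both proteins, against 5886 with LOXL2. Its fitted change was 0.36 ± 0.07, which did not pass the test (adjusted p = 0.0808). The other Mef2a probes, 824 and 3002 bases further downstream at chr7:74378751-74378810 and chr7:74376573-74376632 on the minus strand of mm9, differed by 0.04 ± 0.07 and 0.05 ± 0.06 (limma adjusted p = 0.702 and 0.586). All 4 arrays lay between 345 and 387 on the nearer of these and between 906 and 958 on the farther. The upstream probe is at chr7:74379575-74379634. Mef2b is the family member outside the list. Of its 2 probes 1 was kept, with values from 95.6 to 115, and its BMP2 change was 0.14 ± 0.10 (adjusted p = 0.4).

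Among the deacetylases, Hdac4 rose with BMP2 while Hdac7 fell. Hdac4, at chr1:93829554-93829613 on the minus strand, was at 891 with BMP2 alone, against 481 untreated, and at 839 with both proteins, against 534 with LOXL2. The groups did not overlap, and the change of 0.77 ± 0.09, a 1.71-fold rise, passed narrowly (limma adjusted p = 0.0481). Hdac7, a deacetylase known for its role in endothelium and thymocytes, was at 7559 with BMP2 alone, against 11035 untreated, and at 6883 with both proteins, against 11083 with LOXL2. Its arrays without BMP2 lay close together, and both with BMP2 were lower. It fell by 0.62 ± 0.07, to 1.53-fold lower with BMP2 (adjusted p = 0.0468), on the probe at chr15:97623208-97623267, minus strand.

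Hdac9, which also gives a short form without the deacetylase domain, was at 59.6 with BMP2 alone, against 92.8 untreated, and at 48.1 with both proteins, against 95.3 with LOXL2. Both arrays with BMP2 were below both without it. Its fitted change of -0.81 ± 0.12 just missed the threshold over all probes (limma adjusted p = 0.0585), and passed with 1 probe per gene (adjusted p = 0.0467) or with only probes above background on all 4 arrays (adjusted p = 0.037). With normexp background correction the change was -0.39. The probe lies at chr12:35056405-35056464, minus strand. Hdac5 was at 16530.0 with BMP2 alone, against 18678 untreated, and at 16346 with both proteins, against 18785 with LOXL2. Its change of -0.19 ± 0.06 did not pass (adjusted p = 0.134), although the groups did not overlap on this probe, at chr11:102057076-102057135.

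Over the 11 probes, 2 were called higher and 1 lower with BMP2, while 11.9% of the 33976 probes tested were called in either direction, 5.76% higher and 6.19% lower. The median change of the 11 member probes was 0.05, against 0.02 for all probes. Arrays with and without BMP2 did not overlap for 9 of 11 member probes, and the same held for 68.7% of all probes. A BMP2 difference of at least 2-fold under LOXL2 was found for 1 of 11, Mef2c, beside 6.51% of all probes. Without LOXL2 it was again 1 of 11, also Mef2c, beside 6.64%. With the brightest probe standing for each gene, 2 of 7 genes rose, 1 fell and 4 did not pass, beside 12.7% of genes called among 24041, 6.14% higher and 6.58% lower. The median change of these 7 genes was 0.32, against 0.02 for all genes.

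**Figure D2:**
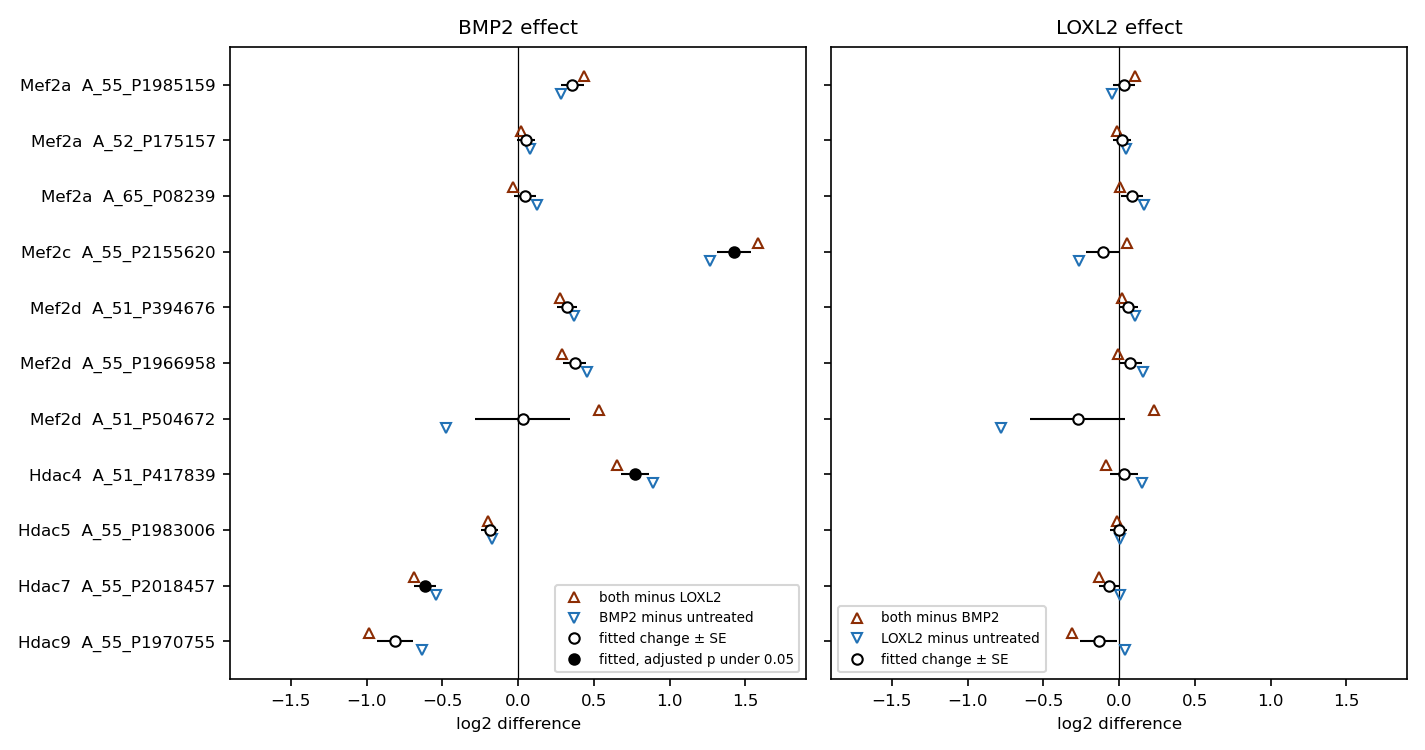
Fitted effect (circles, log2 difference ± SE, filled where the adjusted p is under 0.05) of BMP2 on the left and of LOXL2 on the right for each member probe, with the single-pair differences as triangles. For BMP2 only Mef2c, Hdac4 and Hdac7 are filled, and for LOXL2 none of the 11 probes is.

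Whether LOXL2 changed the members was asked in the same fit. None of the 11 probes passed, with changes from -0.27 to 0.09 and adjusted p from 0.87 to 0.993 in limma, and 0 had an unadjusted p under 0.05. No probe on the array passed either (0%), while 1955 of the 33976, or 5.75%, had an unadjusted p under 0.05. Mef2c was at 119 with both proteins, against 115 with BMP2 alone, and at 39.7 with LOXL2, against 47.8 untreated. Hdac4 stood at 839 with both proteins, against 891 with BMP2 alone, and Hdac9 at 48.1 against 59.6. In the pair without BMP2 both lay the other way. Hdac4 was at 534 with LOXL2, against 481 untreated, and Hdac9 at 95.3 against 92.8. Arrays with and without LOXL2 did not overlap for 1 of 11 probes, the Mef2a probe A_65_P08239, beside 16.1% of all probes. None of the 11 probes differed 2-fold with LOXL2 in either pair, beside 1.22% of all probes under BMP2 and 1.05% without it.

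Whether the BMP2 response of the members depended on LOXL2 could not be tested, as the design leaves no residual spread for it. The BMP2 difference of Mef2c was 1.58 under LOXL2 and 1.27 without it, and that of Hdac4 was 0.65 under LOXL2 and 0.89 without it. For Hdac7 it was -0.69 under LOXL2 and -0.55 without it, and for Hdac9 -0.99 under LOXL2 and -0.64 without it. In 9 of 11 member probes the pairs had the same sign; the exceptions were the Mef2d junction probe and the Mef2a probe A_65_P08239, at -0.03 under LOXL2 and 0.12 without it. The Mef2d junction probe had a difference of differences of 1.01, larger in size than that of 97.4% of all probes. In the other member probes it ran from -0.35 to 0.32.

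Promoters of the members were searched for 2 motifs in RefSeq windows of 250 bases before to 50 after each start site (GRCm38.p6), which hold 13 windows for the 7 genes. The MEF2 consensus, read on both strands, was found in 2 of 13, those of Mef2a and Hdac5, and in 3.19% of all 32851 windows. GGCGCC, a sequence that BMP-activated SMAD proteins can bind, was found in 1 of 13, that of Hdac4, and in 11.9% of all windows. Both motifs read the same on the other strand, and no match of one overlapped the other. The stretches around the matches are shown because they place MEF2 and SMAD letters in the members' own promoters, with the matches in capitals. Those of Mef2a (chr7:67372809-67372910), Hdac5 (chr11:102230133-102230242) and Hdac4 (chr1:92180292-92180460) are all written along the minus strand.
Mef2a: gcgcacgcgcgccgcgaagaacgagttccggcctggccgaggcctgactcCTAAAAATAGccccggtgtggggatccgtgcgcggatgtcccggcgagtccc
Hdac5: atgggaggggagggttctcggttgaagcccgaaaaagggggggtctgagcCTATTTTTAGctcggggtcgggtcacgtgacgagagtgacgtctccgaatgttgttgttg
Hdac4: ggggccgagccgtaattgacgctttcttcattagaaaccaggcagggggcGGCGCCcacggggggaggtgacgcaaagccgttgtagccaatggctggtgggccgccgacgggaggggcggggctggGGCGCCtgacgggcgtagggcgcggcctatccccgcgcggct
The Mef2a match starts 2 bases before the annotated start site, the Hdac5 match 20 before it, and those of Hdac4 start 69 before it and 8 after it. No match of either motif was found in the 3 windows of Mef2c, the 4 of Hdac7, the 2 of Hdac9 or the 1 of Mef2d, which says only that these letters are not there.

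The genes whose profile over the 4 arrays was nearest to that of Mef2c were sought among 15904 named genes above background on all arrays, by the Euclidean distance between log2 values centred on each gene's mean. Mef2c was the only member that spanned at least 2-fold over the arrays, and so the only one compared. The nearest was Pcdh10, a protocadherin, at a distance of 0.0983, with 110 against 43.3 for BMP2 alone and untreated, and 118 against 37.5 for both proteins and LOXL2. Lxn, an inhibitor of carboxypeptidases, followed at 0.119 and the predicted gene Gm3367 at 0.137. With 4 arrays such a likeness is a description only.

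The machinery that acts on class IIa deacetylases was followed through lists of other genes, each gene on its brightest probe. Of 26 kinases and 14-3-3 genes, 2 rose with BMP2, 1 fell and 23 did not pass, with a median change of 0.05, against 0.02 for all genes. Camk4, a calcium-activated kinase that phosphorylates these deacetylases, was at 1074 with BMP2 alone, against 3515 untreated, and at 818 with both proteins, against 3609 with LOXL2. It fell by 1.93 ± 0.14 (limma adjusted p = 0.0356), and its groups were far apart. The related kinase Camk1d rose by 0.89 ± 0.06 and Prkaa2, a catalytic subunit of the energy sensor AMPK, by 0.82 ± 0.08. Sik3, whose loss in mice delays hypertrophy, differed by 0.16 ± 0.06 (adjusted p = 0.17).

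Among 15 corepressor partners and phosphatases, 1 rose and none fell, with a median of 0.04. The gene that rose was Ppp3ca, a catalytic subunit of calcineurin, which dephosphorylates MEF2 and its partners; it changed by 0.49 ± 0.06 (limma adjusted p = 0.0472), a call lost with quantile normalization. Hdac3, the catalytic partner in class IIa complexes, differed by -0.40 ± 0.06 (adjusted p = 0.0601), and it passed with 1 probe per gene (adjusted p = 0.0458). Of 17 MEF2 kinases and coactivators, 2 fell and none rose, with a median of 0.00. Mapk12, a p38 kinase, fell by 1.104 ± 0.07 and the acetyltransferase Kat2b by 0.54 ± 0.06. Over these 58 genes, 10.3% were called, near the 12.7% of all genes.

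Of 6 other histone deacetylases (class I, class IIb and class IV), 0 were called, and their median was -0.10. Hdac11, the class IV enzyme, had the largest difference, -0.57 ± 0.10 (limma adjusted p = 0.0702). Hdac1 differed by -0.07 and Hdac2 by -0.25.

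Genes known as MEF2 targets in muscle, neurons, endothelium or bone moved both ways. Of 16 measured of 19, 3 rose, 4 fell and 9 did not pass, with a median of -0.28. That is 43.8% called, beside 12.7% of all genes. Ppargc1a, a coactivator of mitochondrial genes, was at 264 with BMP2 alone, against 137 untreated, and at 341 with both proteins, against 157 with LOXL2, and rose by 1.03 ± 0.08. Hk2, a hexokinase, rose by 0.93 ± 0.08. The nuclear receptor Nr4a2 fell by 1.17 ± 0.06 and Asb2, a muscle ubiquitin ligase subunit, fell by 1.73 ± 0.07, though by 0.70 with normexp. For Asb2 the values were 25.03 with BMP2 alone, against 86.5 untreated, and 26.1 with both proteins, against 83.2 with LOXL2. Over these 4 genes the limma adjusted p lay between 0.0298 and 0.0387. Sost, Nr4a3 and Xirp2 were not well above background on any array.

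The chondrocyte hypertrophy list held genes of hypertrophic cartilage together with the PTHrP pathway upstream of Hdac4. Of 18 genes, 11 rose and 1 fell, with a median of 1.69. That is 66.7% called, beside 12.7% of all genes. Like the other lists, this one was chosen with earlier results of these data known, so its share is a description and not a test. Foxa2 is among the 11 and was tested only because the arrays with BMP2 were high. Without it 10 of 17 rose and 1 fell, with a median of 1.52. Col10a1 and Foxa3 stay in these counts. Each was above background on 3 arrays and passed the filter only with the help of those with BMP2, where it was high. Col10a1, the collagen of hypertrophic cartilage, was at 3387 with BMP2 alone, against 16.1 untreated, where it was below background, and at 9049 with both proteins, against 18.3 with LOXL2. The fitted rise with BMP2 was 323-fold, a log2 change of 8.335, and 6.01 with normexp. Its limma adjusted p was 0.0298, and 0.0546 with trend and robust variance moderation. Gnas, the G protein subunit downstream of the PTHrP receptor, fell by 0.46 ± 0.06 (adjusted p = 0.0498). The ligand Ihh rose by 5.88 and the channel Panx3 by 4.55, against 4.26 and 3.83 with normexp. Foxa2, a factor of hypertrophic chondrocytes, was below background on both arrays without BMP2 and at least 7.95-fold higher with it, and its fitted change with normexp was 1.44. Mmp13 and Bmp6, named after their values were seen, lay the other way. Mmp13, a collagenase of hypertrophic cartilage, was at 14734 with BMP2 alone, against 20276 untreated, and at 11033 with both proteins, against 20021 with LOXL2. Its change of -0.66 ± 0.13 did not pass (limma adjusted p = 0.0806). The ligand Bmp6 differed by -0.998 ± 0.39 (adjusted p = 0.187).

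Upstream of Hdac4, Pthlh, which encodes PTHrP, was at 88.5 with BMP2 alone, against 48.8 untreated, and at 161 with both proteins, against 53.6 with LOXL2. Its change of 1.22 ± 0.23 did not pass (limma adjusted p = 0.0733), but did with only probes above background on all 4 arrays (adjusted p = 0.0486). With normexp the change was 0.64. The receptor Pth1r rose by 1.13 ± 0.10 (adjusted p = 0.0382). Runx2, a target of both MEF2C and HDAC4 in chondrocytes, differed by 0.08 ± 0.06 (adjusted p = 0.413). Its values were 567 with BMP2 alone, against 544 untreated, and 589 with both proteins, against 552 with LOXL2.

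**Figure D3:**
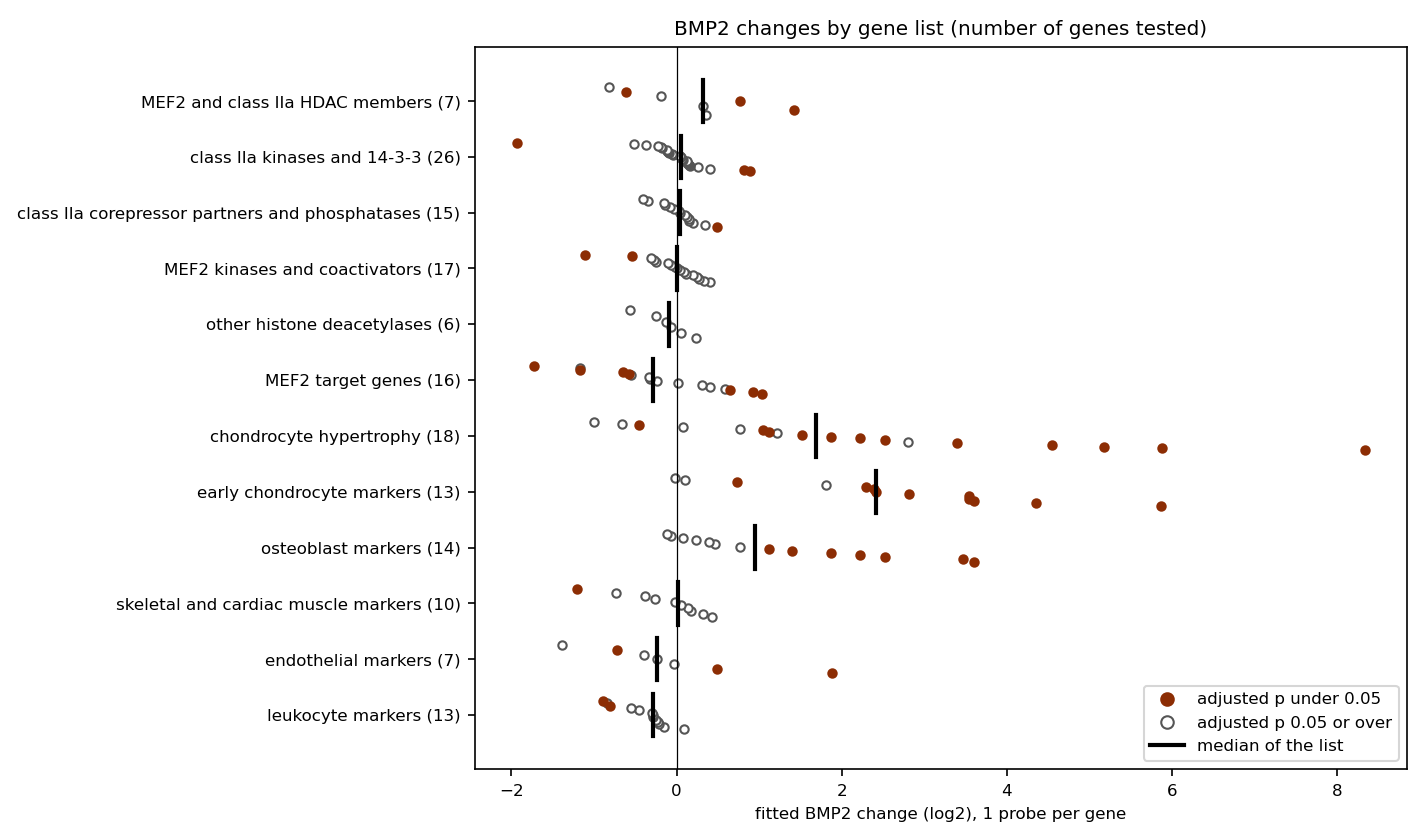
Fitted BMP2 change (horizontal axis, log2) of each gene tested, 1 probe per gene, for the 7 members and for each list, with filled points where the adjusted p was under 0.05 and a bar at the list's median. The members run from -0.81 to 1.42, and the kinase, corepressor and coactivator lists centre near 0, while the hypertrophy list has a median of 1.69. Col10a1, Foxa2, Matn1 and Tek are drawn at their fitted values, which are not bounds.

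MEF2 factors and class IIa deacetylases are also expressed in other cell types, whose markers were read on the same arrays. Of 13 early chondrocyte genes, 10 rose, none fell and the median was 2.42. The share called was 76.9%, beside 12.7% of all genes. The marker lists were also chosen with earlier results of these data known, so their shares are descriptions only. Matn1 is among the 10 and was tested only because the arrays with BMP2 were high. Without it 9 of 12 rose, with a median of 2.40. Matn3, which was not called, stays among the 12. It was above background on 3 arrays and passed the filter only with the help of those with BMP2. Snorc rose by 5.87 (4.36 with normexp, and a call lost with trend and robust moderation, adjusted p = 0.102), Col11a2 by 3.61 and Acan by 3.54, and Matn1 was at least 6.89-fold higher, with a fitted 1.19 on the log2 scale under normexp; all 4 encode cartilage matrix or membrane proteins. The summed intensity of that list was 202055 and 301076 on the arrays with BMP2, against 52564 and 60220 on those without. Of 14 osteoblast genes tested, 7 rose and none fell, or 50% called, beside 12.7% of all genes. Bglap rose by 3.60, its near-copy Bglap2 by 3.47, Ibsp by 2.53 and Sp7 by 2.23. The osteoblast and hypertrophy lists share 6 genes, and 4 of those that rose, Alpl, Ibsp, Pth1r and Sp7, are counted in both.

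In the muscle list, 10 of 15 genes were above background on every array, with Ckm, Myf5, Myf6, Mylpf and Ryr1 above it on none. Of those 10, none rose and Acta1 fell, by 1.21, so that 10.0% were called, beside 12.7% of all genes, and the summed intensity was 8453 to 8671 with BMP2, against 17653 to 18332 without. Without Acta1 the sum was 1559 with both proteins, against 1613 with LOXL2, and 1327 with BMP2 alone, against 1488 untreated. Of 10 endothelial genes, 6 or 7 were above background on each array, with Cldn5, Emcn and Tie1 on none. The sums were 24616 to 25709 with BMP2, against 24511 to 25121 without. Kdr made up most of them, at 21267 and 22312 with BMP2, against 21897 and 22560 without. Of 7 endothelial genes tested, 2 rose and 1 fell, or 42.9% called, beside 12.7% of all genes. Their median was -0.24. Tek, which was not called, is among the 7 and in this median. It was tested only because the arrays without BMP2 were high. On the arrays with BMP2 it was below background and at least 1.89-fold lower. Vwf rose by 1.89 (0.87 with normexp), Egfl7 rose by 0.49 (lost with quantile normalization) and Cdh5 fell by 0.72 (0.44 with normexp). Of 13 leukocyte genes tested, 2 fell, Lyz2 by 0.89 and Tyrobp by 0.80, and none rose, or 15.4% called, near the 12.7% of all genes; 12 to 14 of the 15 listed were above background on each array, Ms4a1 on none, and the sums were 36152 to 37764 with BMP2, against 41900.0 to 42118 without. Itgam, Cd4 and Csf1r made up most of the leukocyte sums and did not pass, and the median change of the leukocyte list was -0.29. The part of these cell types in the members' changes was not tested.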

How the data were processed

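Each deposited scanner file gives the intensity of every spot in 1 colour, Cy3 per the labels. The authors' software was Agilent Feature Extraction, version 10.7.3.1 in the submitters' processing notes. In the files, a fitted spatial background surface was subtracted and the rest divided by a multiplicative trend. The authors' value table was also read, and its intensities equal the mean processed signal of a probe's spots within 0.1% for 99.5% of probes. Probe positions are on mm9 per the file headers.

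Processed signals were converted to log2, from which each array's 75th percentile over non-control spots was subtracted. Outlier spots, 109 to 144 per array, were left out and spots of a probe were averaged. A probe was tested if 2 or more of the 4 arrays flagged it well above background. BMP2 and LOXL2 were fitted together with limma 3.58.1 in R 4.3.3, which leaves 1 residual degree of freedom, the interaction of both proteins, with 1.69 more from the empirical Bayes step. Tests were two-sided, with Benjamini-Hochberg adjustment over 33976 probes and a threshold of 0.05. The smallest adjusted p was 0.0298. A gene in a list was read on its probe with the highest mean. The fit was tested on simulated data. With 1 array per treatment, precision is limited by their number.

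Symbols came from RefSeq (GRCm38.p6, names only) for 26762 probes, and 28919 kept the name in the file. Lower bounds set the dim side to the lowest intensity well above background on that array, or to its own value where higher. From each list the text names the 4 called genes with the largest change, and a few genes chosen for their role. The members and lists were chosen with earlier results of these data known. Alternatives covered scaling, background correction, the value table, the filter, 1 probe per gene, variance moderation, outlier spots, leaving out an array and dropping the other protein from the model. Counts without genes above background only with BMP2, and the muscle sum without Acta1, were added after seeing the data.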

Additional observations from a re-analysis of the deposited data

Results flagged for a closer look

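The Mef2d junction probe A_51_P504672 moved in opposite directions within each protein's pairs. Its BMP2 difference was 0.53 under LOXL2 and -0.47 without it, and its LOXL2 difference was 0.23 under BMP2 and -0.78 without it. The difference between the pairs was not tested, and the other Mef2d probes did not share it.

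A pair of probes carries an Ensembl transcript name in the file, so that the choice by gene name left them out, but is described there as Hdac4 and Hdac9. They were read after the member values had been seen. The Hdac4 probe A_55_P2151675 (chr1:93826607-93826666) was above background on 4 arrays, with intensities of 95.2 with BMP2 alone, against 42.7 untreated, and 86.1 with both proteins, against 56.0 with LOXL2. Its fitted change was 0.89 ± 0.17 (limma adjusted p = 0.0766). The Hdac9 probe A_55_P2065074 (chr12:34792084-34792143) was above background on 2 arrays, both without BMP2. Its measured values were 6.07 with BMP2 alone, against 18.9 untreated, and 5.38 with both proteins, against 14.2 with LOXL2, which makes it at least 1.58-fold lower with BMP2. It passed the filter on dim probes only through the arrays where it is high, so no test is given. Both probes are dim, where spot error is largest.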

How the results depend on the processing

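The count of probes called with BMP2, 4060 of 33976, was 11584 with normexp background correction, 13738 with trend and robust variance moderation, 8332 without the LOXL2 term, 6943 with only probes above background on all arrays, and 0 with no filter on dim probes (11949 at an unadjusted p under 0.05 in limma). The count of member probes called, 3 of 11, was 8 under normexp, 8 under trend and robust, 7 without the LOXL2 term and 0 without the filter. Mef2c, Hdac4 and Hdac7 were called in 10 of 11 settings, all but no filter, where their adjusted p was 0.126, 0.146 and 0.148. Hdac9 was called in 5 of 11, Hdac5 in 2, and the brightest probes of Mef2a and Mef2d in 3 each. The Mef2d probe A_55_P1966958 was called in 3 of the 10 settings that tested it. The count was 3 with quantile normalization, median centring, the value table and outlier spots kept, and 4 of 11 with only probes above background on all arrays. With 1 probe per gene it was 4 of 7. With LOXL2, trend and robust moderation called 71 probes, none a member. The direction changed for the BMP2 change of the Mef2d junction probe, -0.009 with normexp, and for the LOXL2 change of Hdac5, 0.004 with median centring and 0 with normexp. Leaving out an array leaves a single pair and no test; the BMP2 change then ran from 1.27 to 1.58 for Mef2c, from 0.65 to 0.89 for Hdac4, from -0.69 to -0.55 for Hdac7 and from -0.99 to -0.64 for Hdac9. The cause of these shifts was not tested. No paired analysis was possible because each treatment has 1 array and the labels carry no replicate numbers. Dim probes, Mef2c and Hdac9 among them, are limited by signal over background.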

Other observations

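Mamstr encodes a coactivator that binds MEF2 factors in muscle, and it was on none of the lists; it was read after the member values were known. Its brightest probe, A_51_P122141, printed on 10 spots, was at 268 with BMP2 alone, against 525 untreated, and at 235 with both proteins, against 507 with LOXL2. Both arrays with BMP2 were lower by a like amount. It fell by 1.04 ± 0.07, to 2.06-fold lower (limma adjusted p = 0.0342). A dimmer Mamstr probe, A_55_P2126188, differed by -0.29 ± 0.14 (adjusted p = 0.247).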
